A study of Homo sapiens with 17 samples.

Results

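The 5 tRNA genes TRNW, TRNA, TRNN, TRNC, and TRNY lie side by side between ND2 and COX1 on the human mitochondrial genome (ChrMT) and are known together as the WANCY cluster. They were chosen by position, and are 5 of the 22 tRNA genes and of the 37 genes in the deposited annotation. Their reads were examined in 17 RIP-seq libraries, in which double-stranded RNA (dsRNA) was precipitated with the J2 antibody, polyadenylated in vitro, made into PCR-cDNA, and sequenced as long nanopore reads. Of these, 9 came from the human lung adenocarcinoma cell lines H1437, H23, and PC9 without treatment (replicates 1, 2, and 3 of each). Another 6 came from the same lines with IMT1, written IMT-1 here, an inhibitor of the mitochondrial RNA polymerase, and from 1 control per line. The last pair were H23 cells with knockdown of ADAR1, an enzyme that edits adenosines in dsRNA, and their control. The labels name the cell line of each library and which were treated, but not which libraries served as controls, so that alignment names had to be used to tell which libraries were controls. No dose or time of IMT-1 and no library of input RNA was in the sources used here, and ADAR1, a nuclear gene, could not be checked in counts of mitochondrial features.

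Human mitochondrial DNA is transcribed from both strands into long precursors, in which tRNAs punctuate the coding and rRNA sequences and are cut out at their ends. TRNW, the tRNA for tryptophan, is encoded in the same direction as most genes. TRNA, TRNN, TRNC, and TRNY, the tRNAs for alanine, asparagine, cysteine, and tyrosine, are encoded in the opposite direction. The gap between TRNN and TRNC holds the origin of light-strand replication, which folds into a stem and loop in single-stranded DNA. Where RNA of both strands pairs, it forms mitochondrial dsRNA, which J2 can capture. The counts used here do not separate the strands, so a read on TRNA can be the tRNA's own strand or its complement.

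On the revised Cambridge reference sequence, TRNW spans MT:5512-5579 on the plus strand and is 68 bases long. TRNA (MT:5587-5655, 69 bases), TRNN (MT:5657-5729, 73 bases), TRNC (MT:5761-5826, 66 bases), and TRNY (MT:5826-5891, 66 bases) follow on the minus strand. All 5 intervals matched those of RefSeq, and no sequence of these genes was at hand to print. ND2, a subunit of complex I, ends at position 5511, directly before TRNW. COX1, a subunit of cytochrome oxidase, begins at position 5904, 12 bases after TRNY. The gap between TRNN and TRNC covers positions 5730 to 5760, or 31 bases. TRNW and TRNA are 7 bases apart and TRNA and TRNN 1 base, whereas TRNC and TRNY share 1 base. Each tRNA has a gene row and a tRNA row over the same interval in the deposited counts.

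The libraries held 37113 to 6295486 total reads, and 1.14% to 47.2% of these mapped to ChrMT. In 14 libraries, between 0 and 3 of the 22 tRNA gene rows were at 0. In H1437 replicate 1, however, 18 of the 22 were at 0, although it was the largest library, and in PC9 replicate 1 it was 20. In both of these, TRNC was among the few gene rows with reads. It had 224 reads in H1437 replicate 1, beside 912 for TRNP, 9 for TRNF, and 3 for TRNN. In PC9 replicate 1, TRNC had 13 reads and TRNP, the tRNA for proline, 53, and no other tRNA gene row had any. The ADAR1 knockdown library, the smallest, had 11 tRNA gene rows at 0. The comparisons of levels between cell lines are therefore also given without the replicates 1 of H1437 and PC9, and the values of ratios are given by replicate.

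Summed over the 17 libraries, the tRNA rows of the cluster held 9193 reads on TRNW, 1808 on TRNA, 2085 on TRNN, 1644 on TRNC, and 12331 on TRNY. The outer pair, TRNW and TRNY, thus held several times the reads of the 3 inner tRNAs. On the gene rows, this contrast was almost absent, with 2925 reads on TRNW and 2123 on TRNY. The inner tRNAs had the same number of reads on both rows in 17 of 17 libraries.

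**Figure D1:**
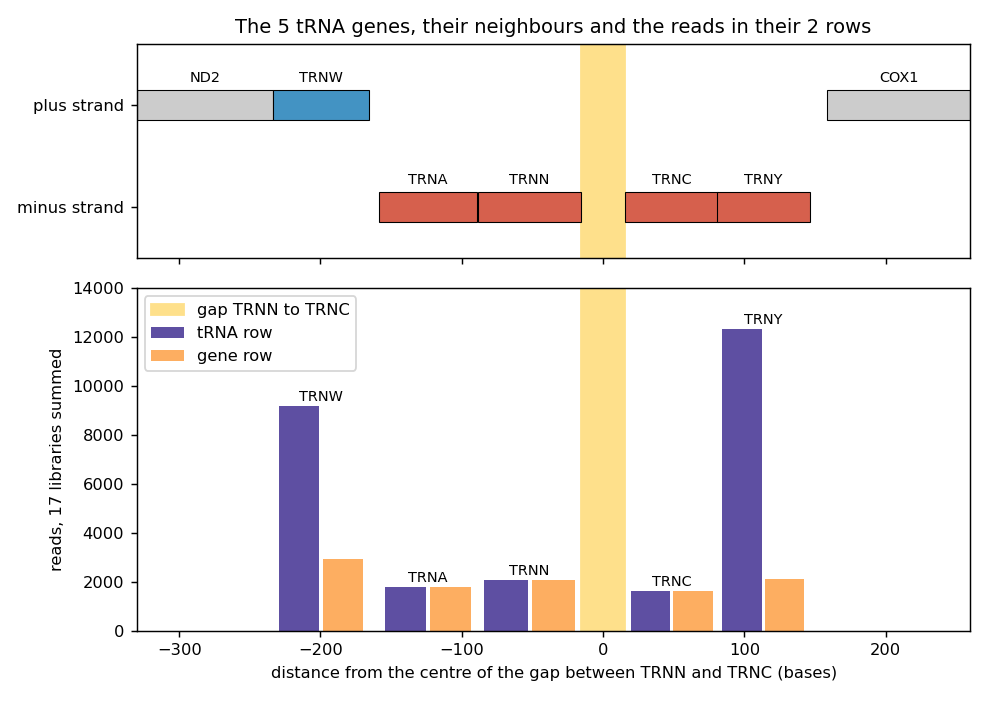
Upper panel, the 5 tRNA genes and the ends of ND2 and COX1 by strand, plotted as distance in bases from the centre of the gap between TRNN and TRNC. Lower panel, reads summed over the 17 libraries on the tRNA row and on the gene row of each tRNA; the bars of the 2 rows are equal for TRNA, TRNN, and TRNC, whereas TRNW and TRNY reach 9193 and 12331 reads on the tRNA row and 2925 and 2123 on the gene row.

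Because both rows cover the same bases, a read counted in every row it touches would give them equal counts. The gene row held 31.8% of the tRNA-row reads of TRNW and 17.2% of those of TRNY, and 100% of those of TRNA, TRNN, and TRNC. The same split was seen over all 22 tRNA genes. The 6 that lie 66 to 145 bases from the nearest gene of another kind (TRNA, TRNN, and TRNC together with TRNQ, TRNS2, and TRNP) had gene rows at 99.9% to 100% of their tRNA rows. The 16 that lie 0 to 12 bases from such a gene, TRNW and TRNY among them, had gene rows at 1.57% to 92.0%. In these counts, therefore, the gap between the 2 rows of a tRNA followed the kind of gene beside it. This is a description of the counts, with no test.

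**Figure D2:**
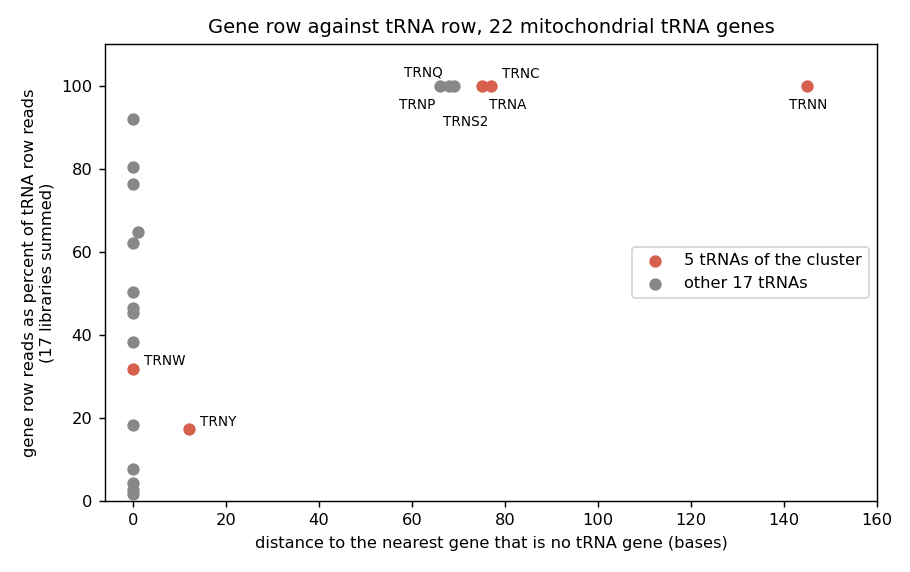
Each point is 1 of the 22 mitochondrial tRNA genes, with the distance in bases to the nearest gene that is no tRNA on the x axis and the gene-row reads as a percent of the tRNA-row reads, summed over the 17 libraries, on the y axis. TRNA, TRNN, and TRNC sit at 100%, whereas TRNW, which adjoins ND2, sits at 31.8% and TRNY, 12 bases from COX1, at 17.2%.

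The gene rows of ND2 and COX1, the neighbours of TRNW and TRNY, lacked reads as well. TRNW had 6268 reads on its tRNA row that were not on its gene row, and TRNM, the tRNA for methionine at the other end of ND2, had 200. ND2 itself had 6679 reads on its CDS row that were not on its gene row, or 103% of the sum of both ends. In the single libraries this percentage ran from 100% to 121%, with a median of 104%. The reads on the tRNA row of TRNW but not on its gene row were thus close in number to those the ND2 gene row lacked. Reads that run from ND2 into TRNW, counted once as CDS, once as tRNA, and not as gene, would give such numbers. The counts are totals, so that whether these were the same reads was not tested. At the COX1 side the numbers did not match as closely. TRNY lacked 10208 reads on its gene row and TRNS1, the tRNA for serine at the far end of COX1, lacked 1482, whereas COX1 lacked 19005, or 163% of the sum (105.6% to 443% in single libraries).

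If a read that touches 2 tRNA rows is left out of both, as the equal rows of the inner tRNAs would allow, the reads on the inner tRNAs must be short. With the minimum overlap of 6 bases, a read could span at most 87 bases on TRNA, 115 on TRNN, and 106 on TRNC without touching a second tRNA. For TRNW this limit was 1127 bases and for TRNY 1629 bases, since ND2 and COX1 are no tRNA. Reads across the gap from TRNN to TRNC would then be in neither row. In that case, levels of the inner and the outer tRNAs would not be measured over reads of like length. Read lengths were not examined, and how much of the difference between inner and outer tRNAs comes from this was not tested.

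Per length, the median over the 17 libraries was 6661 tRNA-row reads per kb per 1000000 total reads for TRNW and 14142 for TRNY. It was 1071 for TRNA, 2651 for TRNN, and 1189 for TRNC. In 10 of 17 libraries, both TRNW and TRNY were above each inner tRNA on this scale. TRNY was the highest of the 5 in 9 libraries, TRNW in 4, TRNN in 3, and TRNC in 1. On the gene rows, the medians per kb were 1981 for TRNW and 1437.2 for TRNY, below the 2651 of TRNN, and both outer tRNAs were above each inner one in only 3 of 17 libraries. The order of the members thus depended on the row.

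The cell lines were then compared, to ask whether J2-captured RNA of the cluster differs between lines. On the tRNA rows, the 5 genes together came to 1169 ± 826 reads per 1000000 total reads (RPM) in H1437, 723 ± 669 RPM in PC9, and 5203 ± 1798 RPM in H23 (SD over 3 libraries of each line). Without the replicates 1 of H1437 and PC9, H23 was higher than H1437 by 1.67 and than PC9 by 2.31 on the log2 scale, compared with 2.15 and 2.85 with them. Most of the mitochondrial rows showed the same order. Of the 38 rows that stand for a single CDS, rRNA, tRNA, or D-loop, 35 had a positive log2 fold change in H23 over H1437 and 38 over PC9. H23 also had the highest share of reads mapped to ChrMT, from 11.0% to 24.4% against 3.03% to 6.63% in H1437 and 1.89% to 7.45% in PC9. The text of the study names H1437 and not H23 as the line with the highest share of mapped reads. By the sample labels the means were 17.46% in H23 and 4.81% in H1437, and the study prints these averages with the lines exchanged. It also reports the strongest mitochondrial dsRNA signal in H23, and a significant enrichment of aligned reads only there. Each direction between H23 and H1437 given here rests on the sample labels, which were followed throughout. As a share of mapped reads, the cluster held 2.27 ± 1.52% in H1437, 1.64 ± 1.14% in PC9, and 3.01 ± 0.116% in H23 (SD over 3 libraries of each line), and the highest H1437 library, at 3.83%, was above all of H23. Per mapped read, H23 thus overlapped H1437, whereas each H23 library was above each PC9 library (0.391%, 1.89%, and 2.63%), with a smaller gap than per total read. Without the replicates 1, the mean share was 3.00% in H1437 and 2.26% in PC9.

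TRNW had 531, 2217, and 3227 RPM in H23 replicates 1, 2, and 3. It had 72.4, 425, and 260 in H1437 and 29.9, 453, and 112.0 in PC9. Each H23 library was thus above each library of the other lines. TRNW was higher in H23 by 2.98 ± 1.45 than in H1437 (log2 fold change ± SE, edgeR adjusted P = 0.184) and by 3.33 ± 1.48 than in PC9 (edgeR adjusted P = 0.178), neither of which passed the test.

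TRNY was likewise highest in H23 in all libraries, with 1447, 1380, and 3324 RPM. H1437 had 132, 933, and 344, and PC9 had 18.0, 816, and 225. The log2 fold change of H23 was 2.13 ± 1.47 over H1437 (edgeR adjusted P = 0.332) and 2.54 ± 1.49 over PC9 (edgeR adjusted P = 0.225). With DESeq2 the first was slightly below 0.

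TRNA had 507, 874, and 208 RPM in H23 replicates 1, 2, and 3. It had none, 81.6, and 184 in H1437 and none, 49.3, and 42.9 in PC9. The counts of 0 allowed up to 0.477 RPM in H1437 replicate 1 and 5.99 in PC9 replicate 1, taking 3 reads as the limit. These floors and the intervals below cover counting error only. Here too the H23 libraries did not overlap those of the other lines, by as little as 208 against 184. The log2 fold change was 2.58 ± 1.88 over H1437 (edgeR adjusted P = 0.332) and 4.10 ± 2.01 over PC9 (edgeR adjusted P = 0.223).

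TRNN, the neighbour of the gap on the ND2 side, overlapped between lines. It had 744, 465, and 152 RPM in H23, 0.477, 294, and 521 in H1437, and none, 54.8, and 274 in PC9. The lowest H23 library thus lay below libraries of both other lines. The log2 fold change of H23 was 0.74 ± 1.82 over H1437 (edgeR adjusted P = 0.848) and 2.04 ± 1.88 over PC9 (edgeR adjusted P = 0.364). With DESeq2 or the mapped reads as library size it was below 0 in both comparisons, and with TMM in the first.

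TRNC, on the COX1 side of the gap, varied least between replicates. It had 196, 226, and 111 RPM in H23, 35.6, 91.1, and 131 in H1437, and 25.9, 36.5, and 30.4 in PC9. H23 was above PC9 in all libraries and overlapped H1437. The log2 fold change was 1.05 ± 0.98 over H1437 (edgeR adjusted P = 0.459) and 2.52 ± 1.02 over PC9 (edgeR adjusted P = 0.167). With DESeq2 or TMM both were below 0, and with the mapped reads as library size the first was.

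**Figure D3:**
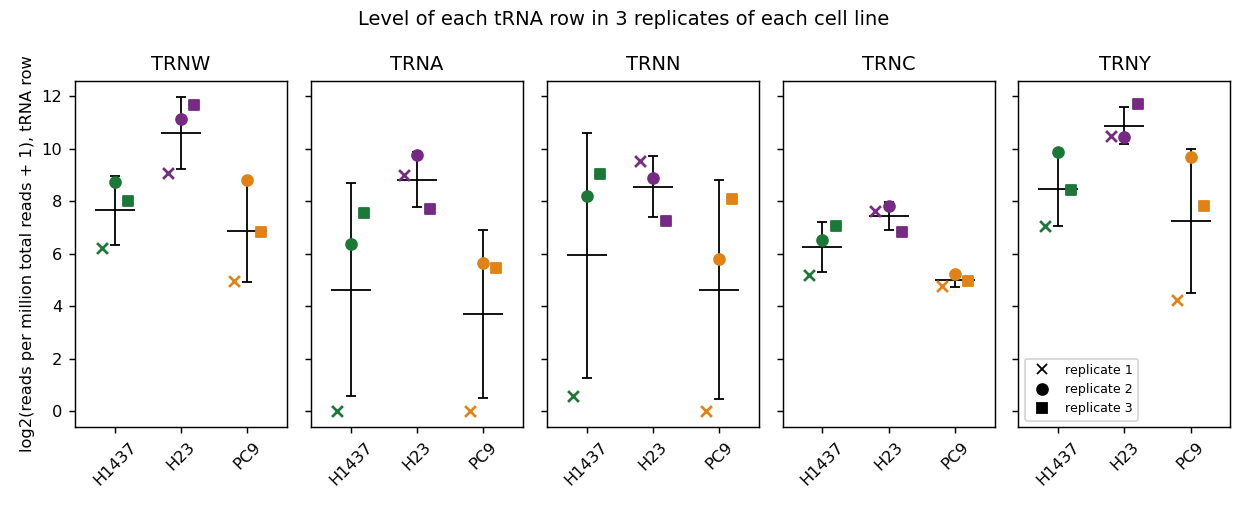
log2(reads per 1000000 total reads + 1) on the tRNA row of each gene in the 3 untreated replicates (cross, circle, and square for replicates 1, 2, and 3) of H1437, H23, and PC9; the black lines are the mean and SD of these log2 values. All H23 points of TRNW, TRNA, and TRNY lie above those of both other lines, and the crosses at or near the bottom for TRNA and TRNN are the replicates 1 of H1437 and PC9.

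In all, 3 of the 5 tRNAs (TRNW, TRNA, and TRNY) did not overlap between H23 and H1437, where 18 of the 38 single rows, or 47.4%, were higher in H23 without overlap. Between H23 and PC9 it was 4 of 5 (TRNW, TRNA, TRNC, and TRNY), beside 17 of 38 rows, or 44.7%. Of the other 17 tRNA genes, 3 and 4 did so, respectively. Leaving out the replicates 1 did not change which of the 5 overlapped, as none of these replicates was the highest of its line. The log2 fold changes were then 2.54 for TRNW, 1.99 for TRNA, 0.15 for TRNN, 0.67 for TRNC, and 1.68 for TRNY in H23 over H1437. Over PC9 they were 2.82 for TRNW, 3.52 for TRNA, 1.45 for TRNN, 2.40 for TRNC, and 1.98 for TRNY. No member passed edgeR in this setting, while 3 of 37 rows (8.11%) did for H23 over H1437 (ATP6, ND3, and TRNQ) and 0 of 37 over PC9. No member passed the edgeR test in any comparison of lines, nor did any of the 38 rows (0%). At an unadjusted P under 0.05 by edgeR, 0 of 5 members and 8 of 38 rows (21.1%) passed for H23 over H1437, and 2 of 5 members (TRNW and TRNC) and 9 of 38 rows (23.7%) passed for H23 over PC9. DESeq2 called 0 rows in each comparison of lines. Without PC9 replicate 2, however, TRNW passed for H23 over PC9 (log2 fold change 4.81 ± 1.49, edgeR adjusted P = 0.0450), beside 13 of 38 rows (34.2%). With the IMT-1 controls added to each line, TRNW, TRNA, TRNC, and TRNY passed in that comparison, beside 21 of 38 rows (55.3%). The median log2 fold change of the 5 was 2.13 over H1437 and 2.54 over PC9, beside 2.01 and 2.26 over all 38 rows. For H1437 over PC9, 0 of 38 rows passed even unadjusted, and the smallest edgeR adjusted P of a member was 0.940. The same-numbered libraries of these lines varied together, though the labels do not say whether they were pairs. Taken as 3 pairs, H1437 was above PC9 in 3 of 3 for TRNC, TRNY, and the sum of the 5, and in 2 of 3 for TRNW. For TRNN it was 3 of 3, but the replicates 1 had 3 reads in H1437 and none in PC9. Those 3 reads were 0.477 RPM, below the 5.99 RPM that 0 reads allow in PC9 replicate 1. For TRNA it was 2 of 3, with no reads in either of the replicates 1. How many of the 38 rows did so was not counted. With the pair as a block, 0 of 37 rows passed, and the smallest edgeR adjusted P of a member was 0.432, for TRNN.

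By an exact permutation test across the 3 lines, which uses log2(RPM + 1), TRNC gave P = 0.0179, TRNW P = 0.075, TRNY P = 0.10, TRNA P = 0.186, and TRNN P = 0.418 (two-sided, n = 3 per line). Adjusted over the 38 rows, the smallest of these was 0.166 for TRNC in the exact permutation test. Unadjusted, 9 of 38 rows had an exact permutation P under 0.05 across the 3 lines, TRNC as the only member among them. In a comparison of 1 pair of lines, 3 libraries against 3 cannot give an exact permutation P below 0.10. The numbers were small and the replicates wide apart. With 4-fold changes simulated at the spread of these libraries, edgeR found 0 of 203 changed rows for H23 over H1437.

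The 2 other clusters with 3 tRNA genes in a row were set beside the WANCY cluster. These were TRNI, TRNQ, and TRNM before ND2, and TRNH, TRNS2, and TRNL2 before ND5. TRNI, TRNQ, and TRNM came to 374 ± 195 RPM in H1437, 638 ± 580 RPM in PC9, and 2883 ± 318 RPM in H23 (SD over 3 libraries of each line), and as in the WANCY cluster each H23 library was the higher. TRNH, TRNS2, and TRNL2 came to 4579 ± 7203 RPM in H1437, 1023 ± 1182 RPM in PC9, and 2782 ± 3275 RPM in H23, and H1437 replicate 3 alone held 12883. The difference between the clusters was not tested.

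The rows most like the sum of the 5 tRNAs over the 17 libraries were TRNP, the D-loop, and ND6, a complex I subunit encoded on the minus strand. Their Pearson r of log2(reads per 1000000 mapped reads + 1) was 0.90, 0.83, and 0.76. Without the replicates 1 of H1437 and PC9, r was 0.92, 0.86, and 0.63, and 5 rows (ATP8, ND2, COX2, COX1, and ND5) then had a higher r than ND6. The points share libraries, lines, and depth, so that these values are a description. Within the cluster, r was highest between TRNA and TRNN (0.86), which are 1 base apart, and between the outer tRNAs TRNW and TRNY (0.79). It was -0.17 between TRNW and TRNC and 0.31 between TRNN and TRNC, on either side of the gap. TRNA and TRNN had 0 and 3 reads in H1437 replicate 1 and none in PC9 replicate 1. Values of r within the cluster were not computed without these libraries.

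Across the gap, the ratio of TRNN to TRNC reads was above 1 in 13 of the 16 libraries with reads on TRNC. In H23 it was 3.79, 2.06, and 1.36 in replicates 1, 2, and 3. In H1437 it was 0.0134, 3.23, and 3.97, and in PC9 it was 0, 1.50, and 9.00. Both values under 1 here were the replicates 1 that stood apart, in which TRNC had reads and TRNN had 3 or none. The lines overlapped, and the ratio spread more within H1437 and PC9 than between lines. Taking all tRNAs of a side, TRNW, TRNA, and TRNN together had 1.08 ± 0.840 times the reads of TRNC and TRNY in H1437, 1.00 ± 0.582 times in PC9, and 1.45 ± 0.665 times in H23 (SD over 3 libraries of each line). Over the 17 libraries this ratio ran from 0.329 to 2.70 with a median of 1.04, and 9 were above 1. On the gene rows the median was 2.25. The median ratio of summed reads was thus near 1 on the tRNA rows and above 1 on the gene rows. These sums set 3 tRNAs against 2 and are not scaled to the number or length of the genes. A ratio of 1 is therefore not an equal level per gene, and the sums do not show which side was higher per gene.

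TRNW, on the plus strand, was set against the mean of the 4 tRNAs on the minus strand. The ratio was 0.734, 3.01, and 3.40 in H23, 1.72, 1.21, and 0.880 in H1437, and 2.73, 1.89, and 0.783 in PC9 replicates 1, 2, and 3. The lines overlapped, and 10 of the 17 libraries were above 1. It was highest in the H23 control of the knockdown experiment, at 8.24, and lowest in H1437 with IMT-1, at 0.302. Of the minus-strand tRNAs, TRNY held most of the reads, and TRNW was above TRNY in 4 of 17 libraries. The lines overlapped in the gene-row share too. Gene rows held 46.8 ± 34.7% of the tRNA-row reads of the 5 genes in H1437, 41.9 ± 23.8% in PC9, and 48.8 ± 20.8% in H23 (SD over 3 libraries of each line), all within the spread between replicates. For TRNW, this share ran from 0% in both replicates 1 that stood apart to 77.8% in H1437 replicate 3. For TRNY, it ran from 0% to 55.4%, in H23 replicate 2.

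The IMT-1 pairs asked what became of the J2-captured reads when mitochondrial transcription was inhibited. There was 1 pair per line, so that a sign-flip test over 3 pairs cannot give an exact permutation P below 0.25. In H1437, the 5 tRNA rows together were at 2511 RPM in the control and 390 RPM with IMT-1. The same sum was at 12317 and 5447 RPM in H23 and at 241 and 1865 RPM in PC9. In PC9, the direction was thus opposite to the others. Untreated PC9 libraries ran from 73.8 to 1410, a range that holds the control and that the IMT-1 library exceeded. Reads mapped to ChrMT made up 5.30% of the control and 1.14% of the IMT-1 library in H1437. They made up 30.5% and 9.83% in H23, and 6.73% and 3.94% in PC9. As a share of mapped reads, the cluster was at 4.74% in the control and 3.41% with IMT-1 in H1437, at 4.04% and 5.54% in H23, and at 0.359% and 4.74% in PC9.

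TRNW was at 511 RPM in the H1437 control and 27.4 with IMT-1, a ratio of 0.0537 (95% exact interval 0.0282 to 0.0936). In H23 it was at 4273 and 888, a ratio of 0.208 (95% exact interval 0.189 to 0.228). In PC9 it was at 29.6 and 241, a ratio of 8.12 (95% exact interval 5.04 to 13.8). The H1437 value lay below all 4 untreated libraries of that line, whereas the H23 and PC9 values lay within the range of theirs.

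On its tRNA row, TRNY was at 1604 RPM in the H1437 control and 63.3 with IMT-1. It was at 6160 and 2767 in H23, and at 40.0 and 1326 in PC9. These are ratios of 0.0394, 0.449, and 33.2, further from 1 than those of TRNW in H1437 and PC9 and nearer to 1 in H23. With IMT-1, H1437 lay below and PC9 above all 4 untreated libraries of its line, and H23 lay among them.

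Of the inner tRNAs, TRNA followed the same directions. Its control and IMT-1 values were 73.9 and 33.7 RPM in H1437, 847 and 444 RPM in H23, and 8.88 (6 reads) and 129 RPM in PC9. TRNN was at 193 and 224 RPM in H1437, 555 and 437 RPM in H23, and 84.4 and 91.9 RPM in PC9. The ratios of TRNN were 1.16, 0.788, and 1.09, and the exact intervals for H1437 and PC9 included 1. TRNC was at 128 and 42.2 in H1437 and at 78.5 and 78.2 in PC9. In H23 it was at 484 in the control and 911 with IMT-1, the latter above all 4 untreated H23 libraries. TRNC was the only member that was higher with IMT-1 in H23, where 6 of 38 rows were higher and 32 lower. On the tRNA rows, 3 of the 5 members (TRNA, TRNN, and TRNC) held a higher share of mapped reads with IMT-1 in all 3 lines. So did 12 of 38 rows (31.6%). The gene row of TRNY was higher by this share in all 3 lines as well. It was at 0.168% and 0.295% in H1437, 0.227% and 0.968% in H23, and 0.0132% and 0.382% in PC9. Mapped reads were themselves a smaller part of the library with IMT-1 in each line, so that these are shares of a smaller whole. TRNA was at 0.139% and 0.295% in H1437, 0.277% and 0.452% in H23, and 0.0132% and 0.328% in PC9. TRNN was at 0.365% and 1.95%, 0.182% and 0.445%, and 0.125% and 0.233%, respectively. TRNC was at 0.242% and 0.369%, 0.159% and 0.927%, and 0.117% and 0.199%.

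**Figure D4:**
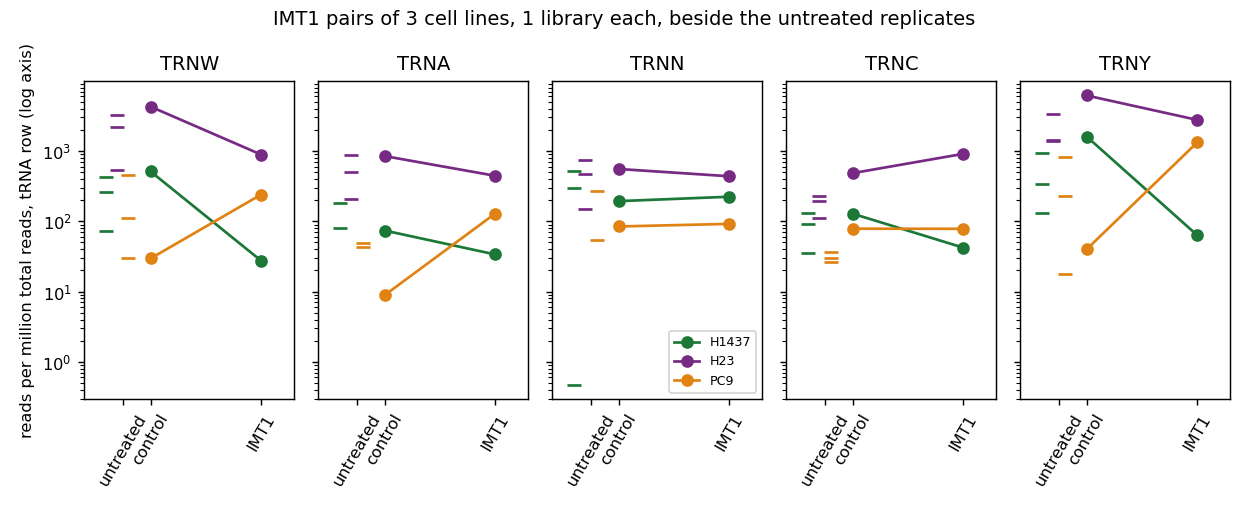
Reads per 1000000 total reads (log axis) on the tRNA row of each gene in the control and the IMT-1 library of each line, joined by a line, with the untreated replicates as dashes at the left (values of 0 are not drawn). The lines of TRNW, TRNA, and TRNY run down in H1437 and H23 and up in PC9, whereas those of TRNN, and that of TRNC in PC9, are close to level.

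With IMT-1, 4 of the 5 members were lower on the tRNA rows in H1437 and in H23, and 1 of 5 in PC9. Over the 38 rows, 34 of 38 were lower in H1437, 32 of 38 in H23, and 18 of the 37 with reads in PC9. No member was lower in all 3 lines, beside 13 of 38 rows (34.2%). TRNW, TRNA, and TRNY were lower in H1437 and H23 and higher in PC9, as were 15 of 38 rows (39.5%). The median log2 ratio in PC9 was 3.02 over the 5 members, 0.12 over all rows, and -0.42 over the other 17 tRNAs. In PC9, ND2 and COX1, the neighbours of the cluster, were at 38.5 and 434 RPM in the control and at 221 and 2278 with IMT-1. No member passed the edgeR test of IMT-1 against control with the line as a block (smallest adjusted P = 0.896), nor did any of the 38 rows (0%), while 0 members and 6 rows (15.8%) passed at an unadjusted P under 0.05 and DESeq2 called 3 rows, none of them a member. The result rested on the PC9 pair. Without it, 14 of 38 rows (36.8%) were called, and TRNW was lower by 3.15 ± 0.62 on the log2 scale (log2 fold change ± SE, edgeR adjusted P = 0.000204) and TRNY was lower by 2.85 ± 0.79 (edgeR adjusted P = 0.00491). That fit held only the H1437 and H23 pairs, with 1 library per line and treatment, and left out the pair of opposite direction. Its estimated dispersion was 0.222, beside 0.629 with all pairs, so that its P values are no evidence of an effect across lines.

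In the ADAR1 knockdown there was 1 library on each side, so that the values compare these libraries and not the conditions. The knockdown library held 37113 total reads against 221155 in the control, and 11.0% of them mapped against 47.2%. The 5 tRNA rows came to 1590 RPM with knockdown and 9175 in the control. TRNW was at 916 with knockdown (95% exact Poisson interval 634 to 1280) and 6177 in the control, a ratio of 0.148 (95% exact interval 0.102 to 0.208). TRNY was at 647 (95% exact Poisson interval 414 to 962) and 2790, a ratio of 0.232 (95% exact interval 0.147 to 0.348). Of the 35 rows whose control level lay above what 0 reads would allow in the knockdown library, 34 (97.1%) were at least 2-fold lower with knockdown, TRNW and TRNY among them. As a share of mapped reads, TRNY was at 0.585% and 0.591%, with a ratio of 0.991 (95% exact interval 0.630 to 1.49), and TRNW was at 0.829% and 1.31%, with a ratio of 0.634 (95% exact interval 0.437 to 0.890).

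The inner tRNAs were near the limit of detection in both libraries. TRNA and TRNC each had 15 reads in the control, or 67.8 RPM, and none with knockdown, where 0 reads allow up to 80.8 RPM. A difference was thus not detectable at this depth. TRNN had 16 reads in the control and 1 with knockdown, a ratio of 0.372 (95% exact interval 0.00888 to 2.40). On the gene rows, TRNW had 421 reads in the control and 5 with knockdown. The gene row of TRNY had 78 reads in the control and none with knockdown, and was at least 4.36-fold lower per total read. The outer pair held 98.3% of the tRNA-row reads of the cluster with knockdown and 97.7% in the control, both above the 57.8% to 93.3% of the 3 untreated H23 replicates.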

How the data were processed

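Base calling used Dorado, and the authors aligned the reads to ChrMT with no nuclear sequence (minimap2 2.17-r941, SAMtools 1.10). They deposited the total and mapped reads of each library, their quotient in percent, and raw counts from featureCounts (long reads, minimum overlap of 6 bases, no multi-mapping reads) for 99 rows, not normalized and not split by strand. In 1 place, the methods let a read over several features count in each of them, and in another they leave such reads out.

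Members, gene lists, and tests were chosen with earlier results of these data known. Counts were scaled to 1000000 total reads. The 38 single rows (CDS, rRNA, tRNA, D-loop) were tested with edgeR 4.0.16 (quasi-likelihood, R 4.3.3, total reads as library size, at least 10 counts in 3 libraries, Benjamini-Hochberg over all rows). The SE beside an edgeR log2 fold change was derived from the fold change and its F statistic, and is not an estimate of the fit itself. DESeq2 1.42.0 was an alternative. Exact tests used Python 3.11.15 and scipy 1.17.1. The exact intervals are at 95%, and cover counting error only, since PCR reads are not independent molecules. On data simulated for H23 over H1437 (38 rows a run), edgeR found 200 of 200 4-fold changes at a dispersion of 0.02 and 0 of 203 at 1.25. The study describes the 3 replicates of a line as independent experiments, without saying whether these were separate cultures. No 2 replicates were alike within sampling noise. Deviations of same-numbered libraries correlated between H1437 and PC9 (0.65 to 0.82) and not with H23 (-0.73 to 0.09). Differently numbered libraries ranged widely too. H1437 replicate 1 was at 0.75 with H23 replicate 3 and at -0.88 with PC9 replicate 3, and H1437 replicate 3 was at 0.64 with H23 replicate 2. The labels do not say whether equal numbers mark a pair.

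The rows named besides the members are ND2 and COX1, the 3 rows most alike over the libraries, and rows at an extreme of the clusters TRNI-TRNQ-TRNM and TRNH-TRNS2-TRNL2; TRNM, TRNS1, TRNQ, TRNS2, TRNP, TRNF, and the rows called or most alike without the replicates 1 were also named, with their values known. Alternatives were the library size, TMM, DESeq2, gene rows, the filter, a replicate block, added controls, and leaving out each library. The settings without both low libraries numbered 1, and with a block over only H1437 and PC9, were chosen after seeing the data.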

Additional observations from a re-analysis of the deposited data

Results flagged for a closer look

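On the tRNA rows, the log2 ratio of IMT-1 over control had a different sign in 1 line than in both others for each member. This came from 1 pair per line, and the difference between lines was not tested. Signs differed between lines for most rows, since 13 of 38 were lower in all 3 lines and 0 higher in all 3. In PC9, the log2 ratio was 3.02 for TRNW, 3.86 for TRNA, and 5.05 for TRNY, while both other lines were below 0. On the gene row of TRNY, H23 was at 0.45. For TRNN, H23 was at -0.34 and both other lines were above 0, with counting intervals of their ratios that included no change. For TRNC, H23 was at 0.91 and both other lines were below 0, PC9 at -0.00495. The PC9 control held 163 reads on the cluster and 6 on TRNA. Its share of mapped reads on the cluster, 0.359%, was the lowest of the 17 libraries, and its part in the PC9 values was not tested.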

How the results depend on the processing

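Main counts of members past the edgeR test were 0 in all 4 comparisons. With the replicate number as a block, 1 of 5 was called for H23 over H1437 (TRNW, 3.05, adjusted P = 0.0492) and 4 of 5 for H23 over PC9 (TRNW, TRNA, TRNC, and TRNY), beside 14 and 20 of 38 rows. Same-numbered libraries correlated between H1437 and PC9 but not with H23, and the labels do not say whether they were pairs. A block over H1437 and PC9 alone called 0. With the IMT-1 controls added, 4 of 5 were called for H23 over PC9, beside 21 of 38 rows. Leaving out 1 library gave 0 for H23 over H1437 and for H1437 over PC9, 0 to 1 for H23 over PC9 (1 without PC9 replicate 2: TRNW, 4.81, edgeR adjusted P = 0.0450, beside 13 of 38 rows), and, for IMT-1, 0 to 2 without a pair.

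The library size turned the direction of TRNN and TRNC, and DESeq2 that of TRNY as well. These settings also moved the median of all 38 rows, from 2.01 to 0.21 with mapped reads, -0.66 with TMM, and -0.84 with DESeq2 for H23 over H1437, and from 2.26 to 0.34, 0.32, and -0.22 for H23 over PC9. For H23 over H1437, TRNN was at -0.94 with DESeq2, -0.68 with TMM, and -0.48 with mapped reads; TRNC was at -1.37, -1.17, and -0.52; and TRNY was at -0.072 with DESeq2. For H23 over PC9, TRNN was at -0.41 with DESeq2 and -0.17 with mapped reads, and TRNC was at -0.86 with DESeq2 and -0.46 with TMM. TRNW and TRNA stayed positive in 15 of 15 alternatives in both comparisons. Over mapped reads, the summed level of H23 was higher by 0.41 than in H1437 and by 0.88 than in PC9, from 2.15 and 2.85 over total reads.

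With a geometric mean, the log2 ratio of TRNW to the minus-strand tRNAs was 1.75 in H1437 and 1.73 in PC9, from 0.14 and 0.60. As the mean of 5 ratios, the gene-row share in H23 was 72.2%, from 48.8%. With knockdown, the summed level was at -0.43 over mapped reads and -3.93 on gene rows, from -2.53. The cause of these shifts was not tested.

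Leaving out 1 library or pair, the summed log2 level ran from 1.67 to 2.63 (H23 over H1437), 2.31 to 3.78 (H23 over PC9), and 0.16 to 1.62 (H1437 over PC9), and the mean IMT-1 log2 ratio from -1.93 to 0.89. The log2 ratio of TRNN to TRNC ran from 1.22 to 1.87 in H1437, 0.87 to 1.54 in H23, and -0.19 to 2.30 in PC9, and that of TRNW to the minus strand from -0.02 to 0.34, 0.91 to 1.69, and -0.12 to 0.95. Depth limits the inner tRNAs most: TRNA had 10 or more reads in 13 of 17 libraries.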
